A study of Homo sapiens with 45 samples.

Results

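Potassium channel genes were followed in 3 neuroblastoma cell lines treated with palbociclib (PB). Members were the gene symbols of the count tables that start with KCN and end in letters and a number, without antisense genes: 87 of 29159 genes fitted this pattern, and 12 other symbols that start with KCN did not. The 64 members with a mean of at least 1 CPM (counts scaled to a library total of 1000000) in at least 1 group are reported here. The other 23 stayed below this level in every group. Just outside it were KCNJ10 at 0.737 CPM, KCNK13 at 0.639, KCNIP1 at 0.581 and KCNG4 at 0.538 in their highest groups, and just inside it were KCNMB3 at 1.36 and KCNK7 at 1.43.

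RNA selected for polyA tails was sequenced from the established human lines IMR-32, SH-SY5Y and SK-N-BE(2)C of adrenergic neuroblastoma, a childhood tumour of the sympathetic lineage. Cells were grown in medium with serum and received no PB (control) or 1 μM PB, which inhibits the cell cycle kinases CDK4 and CDK6, for 24 h or for a longer time, 5 d in IMR-32 and SH-SY5Y but 7 d in SK-N-BE(2)C. The 9 groups each held 5 replicates, described by the study as different passages plated in independent experiments. Controls were collected with the 24 h cells, so at the longer time cells had also been cultured longer than controls, and 7 d against 5 d cannot be told apart from the difference between lines. Values listed for all lines without their names stand in the order SK-N-BE(2)C first, IMR-32 next, SH-SY5Y last. Each line is the culture of 1 tumour, so a value speaks for that line alone.

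Potassium channels let potassium ions leave or enter a cell and so set its resting potential and the shape and rate of its action potentials. Voltage-gated channels (Kv1 to Kv4, Kv7 and the EAG, ERG and ELK family) open when the membrane depolarises, calcium- and sodium-activated channels respond to ions inside the cell, and inward rectifiers and tandem-pore (K2P) channels carry current near rest. Silent modifiers form no channel by themselves and join Kv2 subunits, and auxiliary subunits change the gating or surface level of the pore-forming ones. Neurons gain and exchange many of these channels as they mature, and sympathetic neurons are known for the Kv7 M-current, which limits repetitive firing.

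The pore-forming members share the selectivity filter, a short stretch with a glycine, an aromatic residue and a glycine that passes potassium and holds back sodium. The rule did not use this stretch. A pattern of threonine or serine, 1 further codon of any kind and then glycine, tyrosine or phenylalanine, and glycine was searched in the coding sequences of the canonical transcripts. It was found in 56 of 56 pore-forming members and in 0 of 8 auxiliary subunits, against 559 of 19526 genes with a coding sequence (2.86%). The middle codon of the first match was tyrosine in 42 members and phenylalanine in 14, among them all 8 EAG, ERG and ELK genes. K2P channels have a pair of pore domains in 1 chain. Of the 10 K2P members, 6 had 2 matches and the other 4 a single one, and in 4 of the 6 the first match held tyrosine and the second phenylalanine. The 30 coding bases around the filter are shown, from the reference genome and not from these cells, for KCND1, KCNT2 and KCNK5, pore-forming genes called alike in every line after longer PB, and for 2 abundant members, KCNH2 and KCNT1. Capitals mark the codons of the glycine, the aromatic residue and the second glycine.
KCND1: atgaccacgcttGGCTACGGAgacatggtg
KCNT2: ttttctactgtgGGCTTCGGGgatgtcact
KCNT1: ttctccaccgtgGGCTACGGTgacgtcacg
KCNK5: attaccaccattGGATATGGCaatgtggct
KCNH2: ctcaccagtgtgGGCTTCGGCaacgtctct
On GRCh37 these exonic stretches lie at chr1:196398779-196398808 (KCNT2, minus strand), chr9:138651604-138651633 (KCNT1, plus) and chr7:150648588-150648617 (KCNH2, minus). Those of KCND1 (chrX:48823498-48825571, minus) and KCNK5 (chr6:39162520-39163664, minus) are joined over an intron. KCNT2 and KCNT1, the sodium-activated pair, carry phenylalanine and tyrosine codons at the same place of the filter.

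Libraries held 13459219 to 25441812 counts (median 18494528). The labelled treatment was visible in 5 proliferation genes (MKI67, TOP2A, CCNE2, E2F1 and MCM2), which were lower at 24 h in all 3 lines, 5 of 5 in each, and at the longer time 5 of 5 in SK-N-BE(2)C and SH-SY5Y and 4 of 5 in IMR-32. From 24 h to the longer time their log2 fold changes ran from -0.352 to 0.967 in SK-N-BE(2)C, 1.02 to 3.52 in IMR-32 and 0.431 to 1.96 in SH-SY5Y. In IMR-32 they summed to 1816–2617 CPM in control, 310–480 at 24 h and 810–1267 at 5 d. All 12 adrenergic markers searched were at 1 CPM or more except TH in SH-SY5Y. Their summed level per library moved with treatment, with 5635–6100.3 CPM in control and 9613–14026 at 7 d in SK-N-BE(2)C, 2378–3529.8 and 3424–4487 (5 d) for IMR-32, and 5768–7591 and 9402–12565 (5 d) for SH-SY5Y. Of 11 mesenchymal markers found, 8, 6 and 11 reached 1 CPM in the 3 controls. Their sum moved down without overlap in IMR-32, from 654–1223 CPM in control to 290–476 at 5 d, and in SH-SY5Y, from 1927–2612 to 1455–1595, while in SK-N-BE(2)C it stood at 630–857 and 404–712 (7 d). The 5 Schwann or glial markers found summed to at most 27.9 CPM in any library. Their sum moved up without overlap in IMR-32 (1.26–3.40 to 5.33–9.26 CPM) and SH-SY5Y (3.28–5.10 to 5.98–13.5) and overlapped in SK-N-BE(2)C (16.0–21.6 and 16.1–26.4). The part of these lists in the results was not tested. In IMR-32 the libraries of replicate 5 stood apart from the others of their groups, with a chi-square per degree of freedom of at least 22.3 against other replicates, so counts of calls are also given without them. At 24 h in IMR-32 replicate 2 stood apart as well, at 40.4 to 44.7 against replicates 1, 3 and 4, which lay at 3.93 to 9.51 from each other. Without it every call against control at 24 h and at 5 d was kept and none was added. The 7 d libraries of SK-N-BE(2)C were also far from each other, replicate 1 at 22.3 to 77.8 and replicate 3 at 24.5 to 77.8 from the rest. Without either one all 22 calls at 7 d against control were kept, and without replicate 1 KCND3, KCNF1 and KCNK9 were added. Of the 64 members, 26 share exonic bases with a gene on the opposite strand, and which strand was counted is not known here, so their levels are uncertain by what such a gene adds. Among those given with values these are KCNMB3 (3403 bases), KCNC2 (2298), KCNQ5 (931), KCNG1 (434), KCNMA1 (419), KCNJ8 (268), KCNJ4 (260), KCNAB2 (212), KCNJ2 (185), KCNQ1 (177), KCNH8 (158), KCNAB1 (121), KCNK10 (96), KCNH3 (43) and KCNJ6 (12), and KCNH1, KCNIP2, KCNIP4, KCNK12 and KCNK15, whose overlaps stand beside their values. In bulk RNA, fewer cells with a transcript and less of it per cell cannot be told apart.

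The lines differed in which channels they transcribed at 1 CPM or more. In some group IMR-32 had 53 members at this level, SH-SY5Y 43 and SK-N-BE(2)C 41, and 28 reached it in all 3 lines. Of the 12 that reached it in IMR-32 and in neither other line (KCNA4, KCNB2, KCNC2, KCND2, KCNIP3, KCNJ4, KCNJ6, KCNK2, KCNN2, KCNS2, KCNS3 and KCNV1), KCNB2, a delayed rectifier of the Kv2 family, stood highest. Its control libraries held 126, 119, 96.9, 121 and 85.2 CPM in IMR-32 and 0 counts in all 10 control libraries of the other lines, which puts it at least 3569-fold higher than in SK-N-BE(2)C and at least 3778-fold higher than in SH-SY5Y (against a floor of 3 counts over the 5 libraries, counting error only). KCNK2, a mechanically gated K2P channel, was at 51.2–60.2 CPM in IMR-32 and 0 in SH-SY5Y controls, at least 1887-fold higher. In SK-N-BE(2)C alone 5 members reached 1 CPM (KCNA2, KCND3, KCNH5, KCNK7 and KCNMB3) and in SH-SY5Y alone 2 (KCNN3 and KCNQ1).

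Divided by the length of the canonical transcript, which allows genes to be compared with each other, KCNH2 led in 2 lines. KCNH2, the ERG channel of cardiac repolarisation, stood at 116 ± 11.7 CPM per kb (mean ± SD, n = 5, as for all levels) in untreated SK-N-BE(2)C and 90.7 ± 11.1 in untreated SH-SY5Y. Next in SK-N-BE(2)C were KCNJ8, the pore of vascular-type ATP-sensitive channels, at 48.1 ± 4.03, the sodium-activated KCNT1 at 33.0 ± 2.34, and the acid-sensitive K2P channel KCNK3 at 25.7 ± 2.42, which lay within the spread of KCNA3 (24.1 ± 1.61) and KCNG1 (23.5 ± 2.99). IMR-32 led with the silent modifier KCNG1 at 104 ± 14.8 CPM per kb, while KCNB2 was at 29.3 ± 4.72, with KCNH2 (22.3 ± 3.20) and KCNC1 (21.3 ± 1.89) within each other's spread. In SH-SY5Y KCNJ8 came after KCNH2 at 26.7 ± 1.94, and KCNG1 stood at 10.1 ± 0.977. Divided by the length of all exons of a gene, KCNH2 still led in SK-N-BE(2)C (69.1 ± 6.96) and SH-SY5Y (54.0 ± 6.61) and KCNG1 in IMR-32 (41.9 ± 5.998). Other places depended on the length used. For SK-N-BE(2)C this put KCNK3 at 25.7 ± 2.42, above KCNT1 (15.1 ± 1.07), KCNG1 (9.48 ± 1.21) and KCNA3 (5.89 ± 0.394), and in IMR-32 KCNC1 (6.36 ± 0.563) was below KCNH2 (13.3 ± 1.91).

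A member could enter the set by its level in 1 line, as 19 of the 64 did, so differences between lines are partly fixed by how members were chosen, and nothing is read from the following counts against all genes. Tests between untreated lines called 60 of 64 members for SK-N-BE(2)C against IMR-32 (21 higher and 39 lower in SK-N-BE(2)C, 62.1% of all genes tested), 47 for SK-N-BE(2)C against SH-SY5Y (25 higher and 22 lower, 57.5% of all genes) and 48 for IMR-32 against SH-SY5Y (39 higher and 9 lower in IMR-32, 54.2% of all genes). Here and below called means a log2 fold change beyond 0.5 in either direction with an adjusted p below 0.05 in edgeR's quasi-likelihood F test, adjusted over all genes tested. KCNT1 showed the contrast: 257, 219.8, 218, 234 and 246 CPM in the SK-N-BE(2)C controls against 0.115–1.76 in IMR-32 and 2.34–3.84 in SH-SY5Y, a log2 difference of 8.03 ± 0.27 (SE) from IMR-32 (edgeR adjusted p = 1.02e-26). KCNG1 was higher in IMR-32 than in SH-SY5Y by 3.55 ± 0.27 on the log2 scale (edgeR adjusted p = 7.43e-15).

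**Figure D1:**
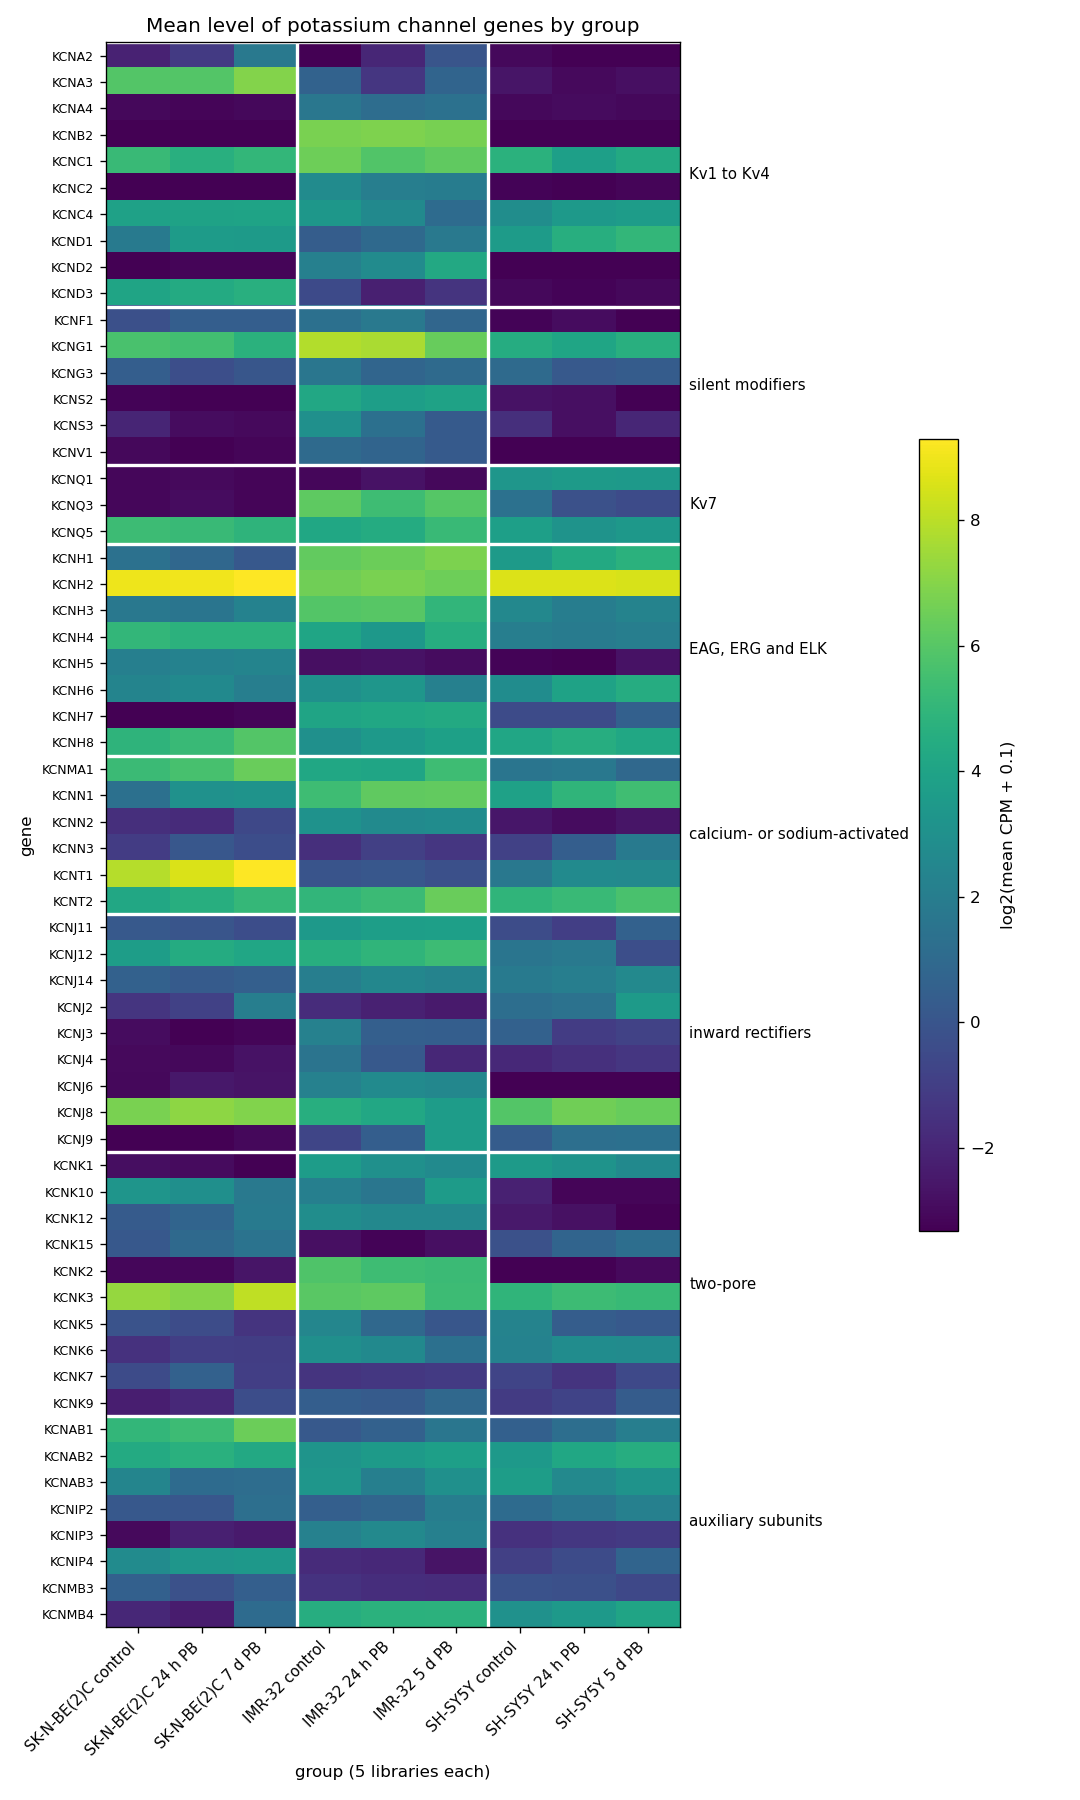
Heat map of the mean level of 60 of the 64 potassium channel genes (rows, by channel class) in the 9 groups (columns, 5 libraries each), coloured by log2(mean CPM + 0.1). KCNH2 and KCNG1 stand high in all 3 lines, while KCNB2, KCNK2 and KCND2 stand far higher in the IMR-32 columns than in the others and KCNT1 is far above the other lines in SK-N-BE(2)C.

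Changes with PB were common among the members. Of the 64 members, 44 had enough counts to be tested in SK-N-BE(2)C. At 24 h, 9 were higher and 4 lower than in control, beside 10.9% and 10.6% of all genes tested. By 7 d these counts were 17 and 5, beside 24.5% and 22.3% of all genes, and from 24 h to 7 d they were 14 and 5, beside 17.5% and 14.4%. IMR-32 had 55 tested members. At 24 h, 4 were higher and 11 lower (7.87% and 10.5% of all genes), at 5 d 15 and 14 (16.6% and 15.5%), and from 24 h to 5 d 13 and 9 (10.8% and 8.86%). Without replicate 5 these counts were 6 and 13, 15 and 22, and 14 and 11. In SH-SY5Y, with 45 tested, 13 were higher and 9 lower at 24 h (10.5% and 11% of all genes), 23 and 8 at 5 d (18.6% and 17.3%), and 10 and 3 from 24 h to 5 d (10.5% and 6.23%). Among the tested members the shares lower at 24 h in SK-N-BE(2)C, higher at 24 h in IMR-32, lower at 5 d in SH-SY5Y and lower from 24 h to 5 d in SH-SY5Y were near those of all genes, and the shares lower at 7 d in SK-N-BE(2)C were below them. A member that passed the filter on low counts through the group where it is high had to differ, so these counts describe the genes that could be tested and do not compare them with other genes.

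In all, 46 of 64 members were called at the longer time in at least 1 line (71.9%, beside 60.6% of all genes tested in 1 line or more), and 4 (KCNC1, KCNH2 and KCNH4 among them) were tested in all lines and called in none. The median log2 fold change of the tested members was 0.18, 0.13 and 0.28 at 24 h in the 3 lines, and 0.41, -0.07 and 0.67 at the longer time, beside medians over all genes of 0.02, 0.06 and 0.04 and of 0.01, 0.00 and 0.01. Of the members higher at the longer time, 7 of 17, 4 of 15 and 12 of 23 were also higher at 24 h, and of those lower, 1 of 5, 6 of 14 and 5 of 8 were also lower at 24 h. Of the 31 members tested in all lines, 6 rose in all 3 at the longer time (KCND1, KCNN1, KCNT2, KCNAB1 and KCNIP2 among them) and 1 fell in all 3 (KCNK5), 19.4% and 3.23% beside 6.91% and 6.50% of all genes tested in 3 lines. Of the 49 tested in 2 or 3 lines, 7 were called in opposite directions (KCNC4, KCNH1, KCNH6, KCNMA1, KCNJ12, KCNK10 and KCNK3), 14.3% beside 2.83% of all genes. Without replicate 5 of IMR-32, KCNK12 was also called lower there (-0.70, edgeR adjusted p = 0.00600), opposite to its call in SK-N-BE(2)C. KCNH3, KCNK6 and KCNQ5 were called in opposite directions in some other fits, as described below. At 24 h 31 members were called in at least 1 line, beside 32.9% of all genes, 3 of those tested in all lines were higher in each and 3 lower in each (KCNAB3, KCNC1 and KCNG3), beside 2.84% and 5.81%, and none was called in opposite directions, beside 0.225%. In the fit blocked on replicate number KCNC4 was called in opposite directions at 24 h, as described below. The 2 comparisons of a line share its control libraries, so the calls at 24 h and at the longer time are not independent.

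**Figure D2:**
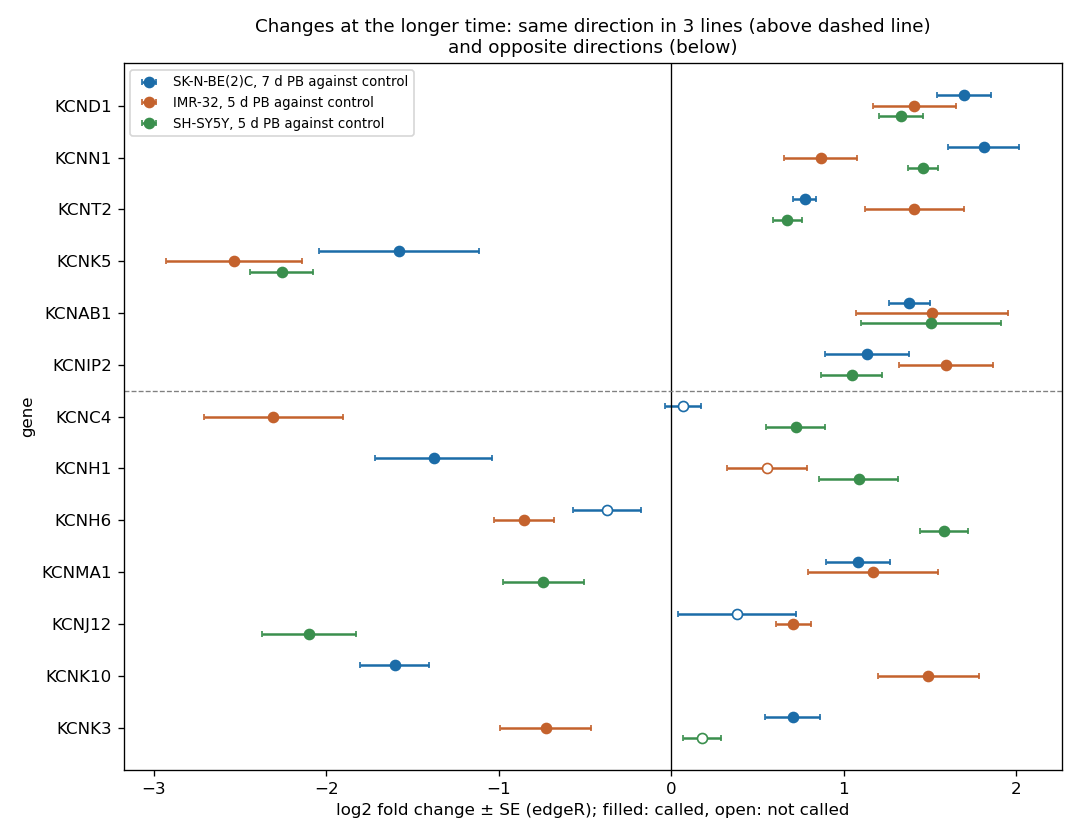
Log2 fold change with its SE (horizontal axis) at 7 d (SK-N-BE(2)C) or 5 d (IMR-32, SH-SY5Y) against control for 6 of the 7 genes called in the same direction in all lines (above the dashed line) and the 7 called in opposite directions (below it), filled where called. KCND1, KCNN1, KCNT2, KCNAB1 and KCNIP2 lie right of 0 in each line and KCNK5 left of 0, whereas KCNC4, KCNH6 and KCNK10 have called points on both sides.

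Kv7 members did not change alike. KCNQ3, a subunit of the M-channel, was at most 0.0336 CPM on average in any SK-N-BE(2)C group. In IMR-32 it went from 80.5, 81.1, 70.5, 76.1 and 54.0 CPM to 47.9, 24.4, 48.2, 52.1 and 36.3 at 24 h, a log2 fold change of -0.75 ± 0.16 (edgeR adjusted p = 0.00202), and stood at 55.1–68.5 at 5 d (-0.22 ± 0.16, not called). Control replicate 5 was the lowest control. The other controls lay above every 5 d library, and without replicate 5 the 5 d log2 fold change was -0.33 (adjusted p = 0.0883, not called). In SH-SY5Y it fell from 1.88–3.38 CPM to 0.593–1.10 at 24 h and 0.336–0.840 at 5 d, with -2.02 ± 0.26 at 5 d (edgeR adjusted p = 2.05e-06). KCNQ1, the channel of heart and epithelia, was at 9.77 ± 1.36, 11.7 ± 1.06 and 10.8 ± 1.13 CPM in the 3 SH-SY5Y groups and was not called. The other lines had at most 2 counts of it in any library. KCNQ5, a further M-type subunit, was higher at 5 d in IMR-32 (18.1 ± 6.60 to 36.8 ± 11.3 CPM, log2 fold change 1.01 ± 0.34, edgeR adjusted p = 0.0229), but with overlapping libraries, a call lost without the filter on low counts (adjusted p = 0.0634) or without 5 d replicate 2 or 4. It was lower at 24 h in SH-SY5Y (-0.65 ± 0.12, edgeR adjusted p = 0.000287). At the longer time KCNQ5 was not called in SK-N-BE(2)C or SH-SY5Y. It was called lower in SK-N-BE(2)C without control replicate 1 or 7 d replicate 5, and in SH-SY5Y without control replicate 3 or 5 d replicate 5.

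Among Kv1 to Kv4, KCND1 rose in all lines, KCNC1 fell at 24 h in all lines, and the rest were called against control in at most 2 lines. Of the 12 genes 8, 11 and 5 were tested in the 3 lines, of which 3, 4 and 4 were higher at the longer time and 0, 1 and 0 lower. KCND1 (chrX:48818639-48828251) belongs to the Kv4 family, which carries the fast inactivating A-type current. Its SK-N-BE(2)C libraries held 2.90, 3.16, 3.59, 3.64 and 4.06 CPM in control, 10.1, 9.39, 13.99, 14.1 and 12.8 at 24 h and 7.70, 12.7, 12.9, 12.1 and 12.3 at 7 d. The 24 h libraries lay well above the controls, and the 7 d libraries, apart from replicate 1 at 7.70, lay within the range of the 24 h ones. In SH-SY5Y it went from 9.89–14.1 to 19.0–27.1 and 24.6–39.2 CPM, and in IMR-32, at a much lower level, from 1.06–1.504 to 1.05–2.55 and 2.44–4.49. At the longer time the log2 fold changes were 1.70 ± 0.16 (edgeR adjusted p = 7.38e-08), 1.41 ± 0.24 (edgeR adjusted p = 0.000208) and 1.33 ± 0.13 (edgeR adjusted p = 5.82e-08), without overlap. At 24 h they were 1.76 ± 0.16, 0.66 ± 0.24 and 0.94 ± 0.13. The 24 h call in IMR-32 was marginal (edgeR adjusted p = 0.0474) and was lost without replicate 5 (log2 fold change 0.59, adjusted p = 0.0964), in DESeq2 (adjusted p = 0.0599), under both other scalings, without the filter on low counts and without any of 10 single libraries of the line.

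**Figure D3:**
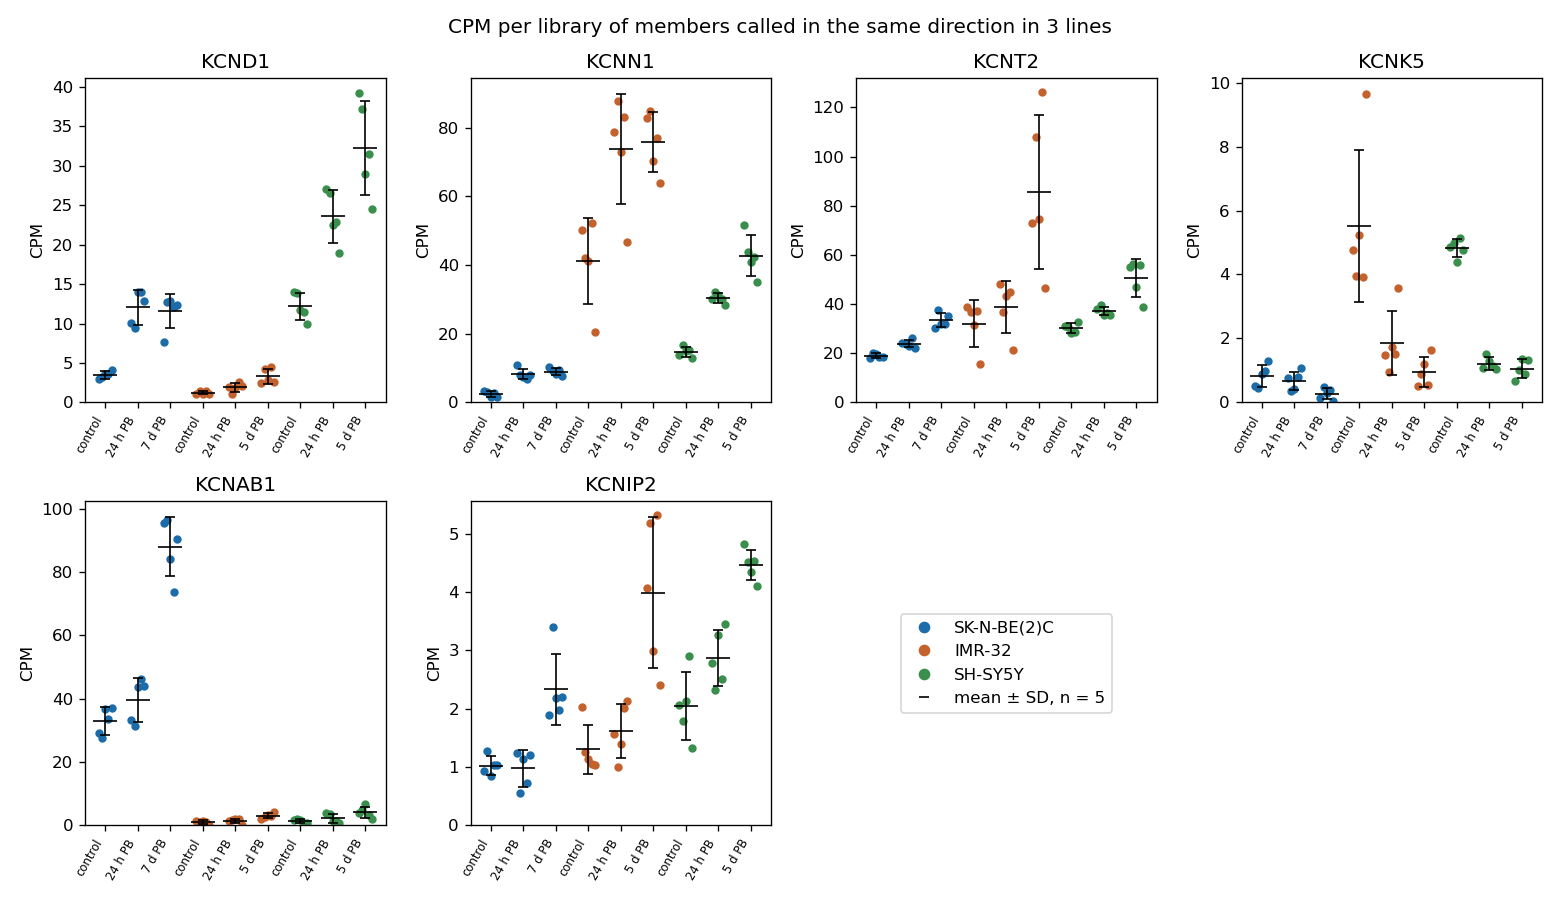
Level of 6 of the 7 genes called in the same direction at the longer time in all lines, in CPM (vertical axis, from 0) for each library (points, coloured by line) with the mean ± SD of its group (n = 5), over control, 24 h and the longer time in each line. KCND1 and KCNT2 climb from control to the longer time in every line, and KCNK5 drops to at most 1.62 CPM in each longer group.

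KCND2, the Kv4 gene of brain dendrites, had at most 1 count in any library of the other lines and rose in IMR-32 at 5 d, from 6.19, 4.91, 4.35, 5.93 and 0.804 CPM to 20.9, 22.7, 17.0, 22.6 and 13.1, all above the controls (2.10 ± 0.43, edgeR adjusted p = 0.00103; 1.94 without replicate 5, the lowest library of each group). KCNA3, a Kv1 channel best known from T cells, rose at 7 d in SK-N-BE(2)C. Its controls held 61.2, 63.5, 62.7, 54.5 and 56.4 CPM and the 7 d libraries 178, 166, 78.4, 83.3 and 122, replicates 1 and 2 being the highest (1.03 ± 0.20, edgeR adjusted p = 0.000351). In IMR-32 the same gene fell at 24 h from 1.09–2.34 to 0.188–0.446 CPM (-2.21 ± 0.33, edgeR adjusted p = 9.40e-05) and stood at 1.14–2.13 at 5 d, within the control range. KCNA2, a Kv1 channel of axons, rose from near 0 in 2 lines. In SK-N-BE(2)C it went from 0.0468, 0.219, 0.150, 0.0743 and 0.162 CPM in control to 1.64, 4.59, 3.57, 3.74 and 3.19 at 7 d (4.53 ± 0.37, edgeR adjusted p = 1.52e-08). All 5 IMR-32 controls had 0 counts of KCNA2, the 24 h libraries 15 in all and the 5 d libraries 80, so it was at least 5.38-fold and at least 30.6-fold higher (floor of 3 counts over the group). Its 24 h call in IMR-32 was lost without 24 h replicate 3, and in SK-N-BE(2)C without any of 4 libraries (control 1 or 4, 24 h 2 or 3).

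KCNB2 stayed at 109.7 ± 17.7, 117 ± 31.8 and 103 ± 10.8 CPM in IMR-32 and was not called. The Kv3 genes serve fast repolarisation. KCNC1, outside the rule for named genes and chosen after its values were seen, was lower at 24 h in all lines: 37.3 ± 1.54 to 24.8 ± 1.01 CPM in SK-N-BE(2)C (-0.62 ± 0.12, edgeR adjusted p = 0.000391), 91.7 ± 8.11 to 57.3 ± 12.04 in IMR-32 (-0.64 ± 0.15, edgeR adjusted p = 0.00469) and 26.5 ± 2.98 to 14.05 ± 1.61 in SH-SY5Y (-0.93 ± 0.12, edgeR adjusted p = 3.28e-06). After longer PB it was at 32.5, 74.9 and 20.5 CPM, overlapped its controls and was called in no line (-0.24 ± 0.12, -0.30 ± 0.15 and -0.45 ± 0.11 on the log2 scale). In SH-SY5Y its adjusted p was 0.00221 in edgeR with a fold under the limit, and it was called lower without 5 d replicate 4 (-0.52, adjusted p = 0.000662).

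KCNC4 (chr1:110752936-110825722), a Kv3 gene with an inactivating current, went opposite ways. In IMR-32 it fell from 10.7, 10.2, 7.40, 9.03 and 13.2 CPM in control to 1.34, 1.36, 0.917, 1.26 and 5.38 at 5 d (-2.31 ± 0.40, edgeR adjusted p = 0.000272). The highest 5 d value was that of replicate 5, and without replicate 5 the log2 fold change was -2.94. At 24 h (-0.67 ± 0.37) it was not called, but it was without replicate 5 (-0.70, adjusted p = 0.00451) and in the fit blocked on replicate number (-0.69, adjusted p = 0.0210). SH-SY5Y showed 9.37, 7.21, 5.68, 6.30 and 7.14 CPM in control and 15.5, 14.3, 10.5, 12.2 and 9.60 at 5 d (0.72 ± 0.17, edgeR adjusted p = 0.00118), without overlap. At 24 h it was already called higher there, with overlap (0.59 ± 0.17, edgeR adjusted p = 0.00891), as it was with the block, a call lost without 24 h replicate 1 (0.47, under the fold limit). SK-N-BE(2)C held 14.9 ± 1.24 and 16.01 ± 2.82 CPM, with no call. The difference between lines passed its own test at the longer time (3.09 between the farthest lines, edgeR adjusted p = 2.19e-08).

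The silent modifiers had no member called higher against control in any line, though KCNF1, at 7 d in SK-N-BE(2)C (log2 fold change 0.76 ± 0.34, edgeR adjusted p = 0.0584), was called higher with library size alone (0.80, adjusted p = 0.0479) and without 7 d replicate 1 or 5, and at the longer time 1 of 3, 3 of 6 and 1 of 2 tested were lower. KCNG1, the most abundant channel transcript per length in IMR-32, fell there from 211, 192, 236, 217 and 278 CPM to 66.4, 41.1, 88.2, 53.2 and 166 at 5 d (-1.46 ± 0.28, edgeR adjusted p = 0.000729), while the 24 h libraries (195–217) overlapped the controls. SK-N-BE(2)C showed a fall from 45.6, 44.9, 49.8, 57.7 and 58.7 to 10.99, 13.01, 39.6, 36.4 and 30.7 CPM at 7 d (-1.01 ± 0.28, edgeR adjusted p = 0.00459), replicates 1 and 2 being the lowest. SH-SY5Y stood at 22.1 ± 2.14 and 24.8 ± 3.49 CPM (0.10 ± 0.10, not called), and the longer response differed between lines (edgeR adjusted p = 0.000830). KCNS3, highest in IMR-32, fell there at both times, from 9.90, 6.61, 9.74, 8.48 and 4.83 CPM to 3.13, 2.55, 3.57, 2.17 and 0.564 at 24 h and then 1.22, 0.763, 1.32, 0.877 and 1.34 at 5 d (-2.84 ± 0.36, edgeR adjusted p = 1.70e-05). In the other lines it had at most 9 counts in any library and was not tested, but DESeq2 and the fit without the filter on low counts called it lower at 7 d in SK-N-BE(2)C and at 24 h in SH-SY5Y. KCNG3, also outside the rule for named genes and chosen after its values were seen, was lower at 24 h in each line, from 1.26, 2.97 and 1.94 CPM to 0.728, 1.64 and 1.04 (-0.80, -0.81 and -0.91 on the log2 scale, edgeR adjusted p = 0.0406, 0.00572 and 0.00765). That call was lost in SK-N-BE(2)C without the filter on low counts and without any of 7 libraries (control 1, 2 or 4, 24 h 2, 3, 4 or 5).

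The EAG, ERG and ELK family held KCNH2, the most abundant channel transcript per length in untreated SK-N-BE(2)C and SH-SY5Y but not in IMR-32, which was called in no comparison with control. With 7 of 8 tested in each line, 1, 1 and 3 members were higher at the longer time and 1, 2 and 0 lower. KCNH2 (chr7:150642049-150675409) was at 498 ± 50.2, 515 ± 45.8 and 612 ± 72.9 CPM in SK-N-BE(2)C (control, 24 h, 7 d). SH-SY5Y held 389 ± 47.6, 394 ± 49.8 and 369 ± 49.2 CPM and IMR-32 held 95.7 ± 13.7, 108 ± 10.4 and 91.5 ± 8.30. Its log2 fold changes against control ran from -0.15 (SH-SY5Y, 5 d) to 0.25 (SK-N-BE(2)C, 7 d). KCNH6 (chr17:61600695-61626338), a further ERG gene, rose in SH-SY5Y from 6.92, 7.21, 6.20, 8.54 and 6.24 CPM to 15.01, 18.3, 13.8, 14.98 and 14.6 at 24 h and 21.6, 23.7, 19.6, 29.5 and 16.1 at 5 d (1.58 ± 0.14, edgeR adjusted p = 2.70e-08), where no treated library overlapped the controls. In IMR-32 it was lower at 5 d, 4.25, 4.58, 5.04, 4.77 and 3.19 against 9.90, 9.07, 7.02, 8.23 and 4.88 CPM, overlapping through control replicate 5 (-0.85 ± 0.17, edgeR adjusted p = 0.000869; -0.89 without replicate 5). The responses differed between lines by up to 2.497 on the log2 scale (edgeR adjusted p = 1.54e-10).

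KCNH1 (chr1:210850165-211307507), the EAG channel, is normally restricted to brain and is often found in tumours. It fell at 7 d in SK-N-BE(2)C from 3.46, 3.29, 2.89, 1.34 and 1.73 to 0.695, 0.540, 1.30, 1.53 and 0.991 CPM (-1.38 ± 0.34, edgeR adjusted p = 0.00169) and rose in SH-SY5Y from 11.7, 12.8, 9.07, 13.7 and 11.6 to 12.9, 24.3, 30.6, 38.5 and 24.8 at 5 d (1.09 ± 0.23, edgeR adjusted p = 0.000627), both with overlapping libraries. In IMR-32, where it was highest, it was at 75.6 ± 19.6 and 112 ± 15.5 CPM (0.56 ± 0.23), not called, though the fit blocked on replicate number called it (log2 fold change 0.60, adjusted p = 0.00260), as DESeq2 did (0.53, adjusted p = 0.0467). Without replicate 5 it stayed under the fold limit, at 0.48, as it also did with the block and without replicate 5. Its exons share 3618 bases with a gene on the opposite strand, and which strand was counted is not known here, so its level is uncertain. The ELK genes KCNH8 and KCNH3 were chosen after their values were seen. KCNH8 was higher at 7 d in SK-N-BE(2)C (29.3 ± 6.86 to 60.8 ± 9.28 CPM, 1.004 ± 0.18, edgeR adjusted p = 0.000165). It was also higher at 5 d in IMR-32 (8.01 ± 1.52 to 14.3 ± 5.25 CPM, 0.82 ± 0.26, edgeR adjusted p = 0.0150), a call lost without 5 d replicate 4 (adjusted p = 0.0514), and the fit blocked on replicate number called it there at 24 h too (0.51, adjusted p = 0.0494). KCNH3 was lower at 5 d in IMR-32 (60.5 ± 22.6 to 32 ± 6.03 CPM, -0.93 ± 0.30, edgeR adjusted p = 0.0187), overlapping through control replicate 5 at 23.7 CPM. It was not called at 7 d in SK-N-BE(2)C (0.53 ± 0.25), but was called higher with scaling by library size alone (0.58, adjusted p = 0.0462) and without control replicate 4 or 7 d replicate 4 or 5. In SH-SY5Y it was lower at 24 h (-0.56 ± 0.19, edgeR adjusted p = 0.0232), a call lost without control replicate 4 or 24 h replicate 3.

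Calcium- and sodium-activated members were called higher against control 3, 1 and 3 times at 24 h and 4, 3 and 4 times at the longer time in the 3 lines, out of 5 tested in each line, and lower once, at 5 d in SH-SY5Y. KCNN1 (chr19:18062102-18110894), a small-conductance calcium-activated channel of the afterhyperpolarisation that follows spikes, rose in all lines at both times. Its SK-N-BE(2)C libraries held 3.23, 3.16, 1.70, 2.67 and 1.46 CPM in control, 10.9, 7.86, 7.36, 6.91 and 8.05 at 24 h and 10.2, 9.18, 8.15, 9.42 and 7.60 at 7 d. IMR-32 had 50.2, 42.0, 41.2, 52.3 and 20.6, then 78.7, 87.7, 72.8, 82.9 and 46.6 at 24 h, and 82.8, 84.9, 70.4, 77.0 and 63.7 at 5 d, with replicate 5 lowest in control and at 24 h. SH-SY5Y had 12.8–16.7, then 28.4–32.2 and 35.0–51.7. The log2 fold changes were 1.71 ± 0.21, 0.89 ± 0.21 and 1.03 ± 0.09 at 24 h and 1.81 ± 0.21 (edgeR adjusted p = 7.28e-07), 0.87 ± 0.21 (edgeR adjusted p = 0.00316) and 1.46 ± 0.09 (edgeR adjusted p = 5.17e-10) at the longer time. Libraries overlapped the controls at 24 h in IMR-32 and in no other of these comparisons. Its relative KCNN3 rose in SH-SY5Y from 0.886, 0.526, 0.156, 0.238 and 0.370 CPM to 5.54, 3.91, 3.91, 3.13 and 1.09 at 5 d (2.89 ± 0.40, edgeR adjusted p = 5.28e-06). KCNN3 was called higher at 24 h in both SH-SY5Y and SK-N-BE(2)C and was not called at 7 d in SK-N-BE(2)C. The 24 h call in SK-N-BE(2)C was lost without any of several single libraries (control 3, 4 or 5, 24 h 1, 2 or 5).

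The sodium-activated pair behaved differently by line. KCNT1 (chr9:138594031-138687354), which limits firing after sodium entry, rose in SK-N-BE(2)C from the control levels given above to 355, 360.0, 398, 403 and 400.1 CPM at 24 h and 561, 636, 623, 714 and 601 at 7 d (0.67 ± 0.06 and 1.37 ± 0.07, edgeR adjusted p = 4.18e-07 and 5.49e-11), without overlap between the 3 groups. In SH-SY5Y it rose from 2.34–3.84 to 4.78–8.72 and 3.81–7.33 CPM (0.95 ± 0.19 at 24 h, edgeR adjusted p = 0.000415), and in IMR-32 it stayed at or below 2.05 CPM in every library, with no call. KCNT2 (chr1:196194909-196578355) rose in every line: SK-N-BE(2)C went from 17.9, 20.1, 19.8, 18.4 and 18.4 CPM in control to 30.2, 37.5, 31.99, 31.9 and 35.2 at 7 d (0.77 ± 0.07, edgeR adjusted p = 3.92e-08). In IMR-32 it went from 38.8, 36.8, 31.5, 37.1 and 15.5 to 72.9, 108, 74.7, 126 and 46.6 (1.41 ± 0.29, edgeR adjusted p = 0.00102), and in SH-SY5Y from 31.02, 30.7, 28.1, 28.5 and 32.8 to 55.3, 56.4, 46.9, 55.7 and 38.8 (0.67 ± 0.08, edgeR adjusted p = 1.56e-06). None of these groups overlapped, and at 24 h none of the 3 changes was called (0.30, 0.33 and 0.28 on the log2 scale).

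KCNMA1 (chr10:78629359-79398127), the large-conductance BK channel opened by calcium and voltage together, rose in 2 lines and fell in the third. In SK-N-BE(2)C it went from 45.6, 50.4, 32.9, 35.7 and 30.7 to 86.8, 118, 80.9, 68.9 and 73.0 CPM at 7 d (1.08 ± 0.19, edgeR adjusted p = 8.53e-05). In IMR-32 the controls held 20.9, 21.4, 23.7, 21.2 and 4.08 CPM, replicate 5 standing far below the rest, and the 5 d libraries 43.5, 50.2, 39.1, 45.6 and 28.9 (1.17 ± 0.38, edgeR adjusted p = 0.0176). Without replicate 5 the log2 fold change was 1.02 (adjusted p = 2.03e-06), and without the filter on low counts the call was lost (adjusted p = 0.0517). In SH-SY5Y it was low and fell from 2.87, 3.21, 3.65, 2.003 and 2.96 to 1.46, 2.12, 2.12, 1.18 and 2.30 CPM (-0.74 ± 0.23, edgeR adjusted p = 0.00961), with overlap. Its BK auxiliary subunit KCNMB4, which slows BK gating in neurons, rose in SK-N-BE(2)C from 0, 0.176, 0.399, 0.0743 and 0.162 to 1.89, 2.65, 2.31, 1.87 and 1.43 CPM (3.52 ± 0.48, edgeR adjusted p = 5.02e-06; 4.15 without control replicate 3) and in SH-SY5Y from 7.35–8.86 to 11.8–19.99 (0.92 ± 0.12, edgeR adjusted p = 1.55e-06). In IMR-32 it was at 23.2 ± 0.981 and 27.8 ± 5.60 CPM and not called.

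**Figure D4:**
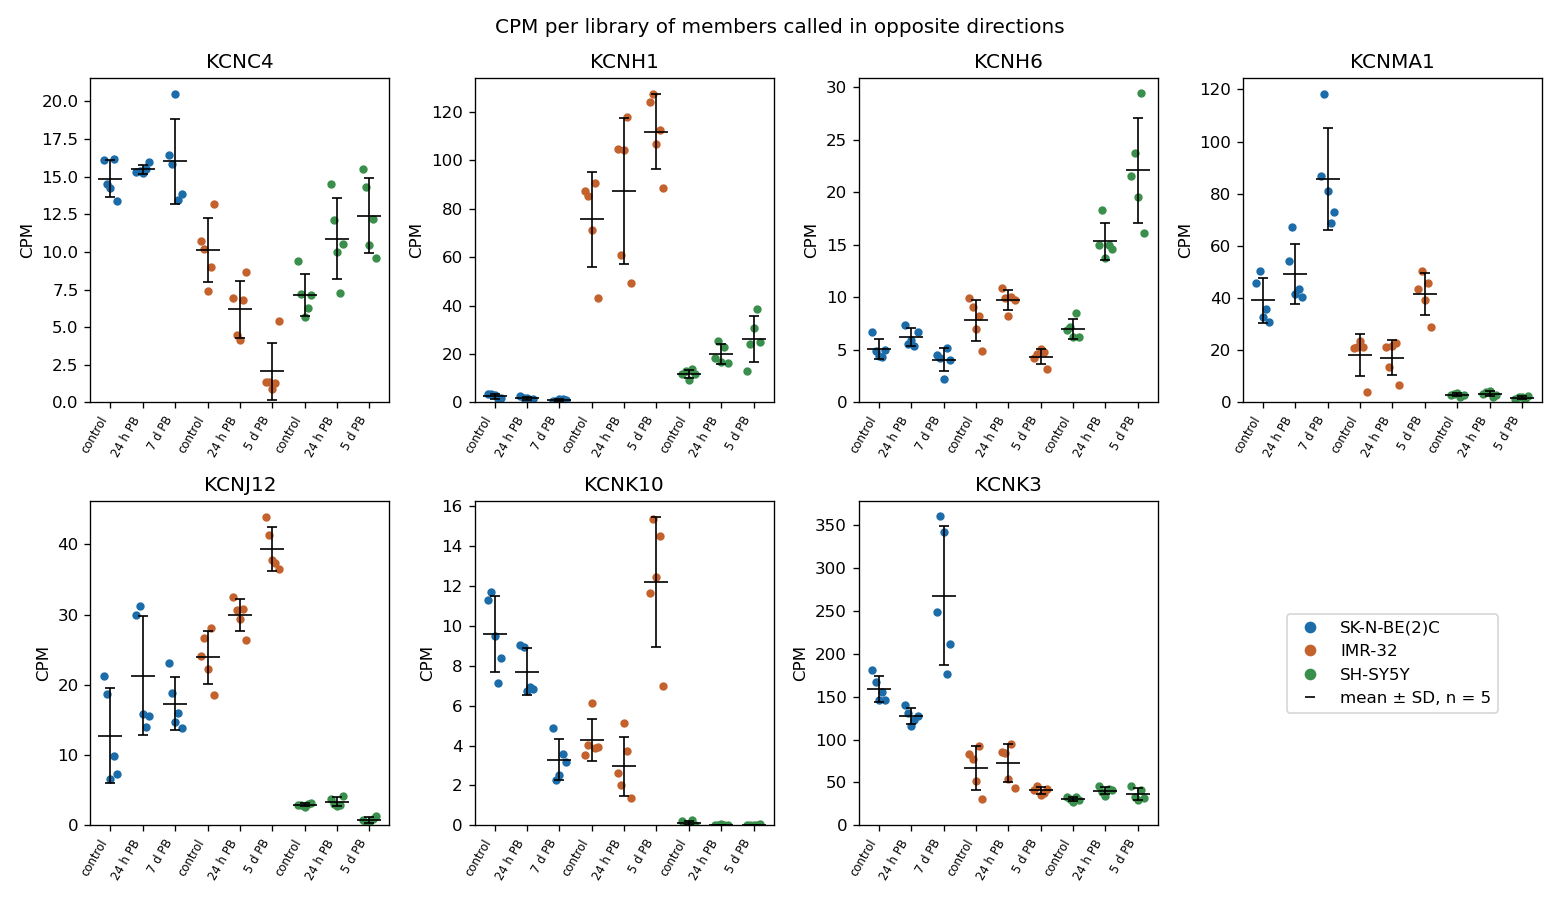
Level of the 7 genes called in opposite directions at the longer time in different lines, in CPM (vertical axis, from 0) for each library (points, coloured by line) with the mean ± SD of its group (n = 5). KCNC4 drops in IMR-32 to 0.917 to 5.38 CPM while it climbs in SH-SY5Y, and KCNK10 drops in SK-N-BE(2)C while it climbs in IMR-32.

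Of the 9 inward rectifiers 4 were called at the longer time in 1 line, 4 in 2 lines and 1 (KCNJ6) in none. Of 5, 8 and 7 tested, 1, 2 and 4 were higher at the longer time and 0, 3 and 2 lower. KCNJ2, a strong inward rectifier that holds the resting potential, rose at 7 d in SK-N-BE(2)C from 0.328, 0.395, 0.299, 0 and 0.433 CPM to 2.78, 6.10, 5.04, 2.496 and 3.80 (3.65 ± 0.41, edgeR adjusted p = 6.92e-07). In SH-SY5Y the 5 d libraries ranged widely, 28.5, 19.5, 8.79, 1.18 and 0.966 against 2.45, 2.998, 3.81, 0.763 and 1.32 in control (2.30 ± 0.78, edgeR adjusted p = 0.0188). They overlapped the controls, and without 5 d replicate 1 the call was lost (log2 fold change 1.69, adjusted p = 0.0747). KCNJ12 (chr17:21279669-21323182), from the same subfamily, has near-identical copies in the genome, so its counts are uncertain. It rose in IMR-32 from 18.5–28.1 to 36.5–43.9 CPM (0.71 ± 0.10, edgeR adjusted p = 4.99e-05) and fell in SH-SY5Y from 2.61–3.17 to 0.335–1.33 (-2.10 ± 0.27, edgeR adjusted p = 2.49e-06). In SK-N-BE(2)C it was at 12.7 ± 6.75, 21.3 ± 8.50 and 17.3 ± 3.79 CPM and not called, though in the fit blocked on replicate number it was called higher at 24 h (log2 fold change 0.75, adjusted p = 0.00105) and at 7 d (0.51, adjusted p = 0.00920). KCNJ4, a further strong rectifier, fell in IMR-32 from 3.76, 2.45, 2.23, 3.80 and 1.49 CPM to 1.22, 1.70, 0.942, 0.923 and 0.501 at 24 h and then 0.0582, 0.109, 0.115, 0.110 and 0.448 at 5 d (-3.99 ± 0.47, edgeR adjusted p = 8.23e-06; -4.89 without replicate 5, whose 5 d library was the highest).

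The G-protein-gated rectifiers, which slow neurons when inhibitory receptors are active, did not move together. KCNJ3, a subunit of the neuronal and cardiac channel, fell in IMR-32 from 4.55, 5.36, 4.84, 3.89 and 3.96 CPM to 1.71, 1.55, 1.98, 1.14 and 0.188 at 24 h and 1.16, 1.36, 1.20, 0.822 and 1.74 at 5 d (-1.85 ± 0.36, edgeR adjusted p = 0.000547), and in SH-SY5Y from 0.811–2.10 to 0.105–0.593 and 0.121–0.840 (-1.64 ± 0.39, edgeR adjusted p = 0.00113). KCNJ9, a neuronal subunit, went up instead: in IMR-32 from 0.575, 0.451, 0.708, 0.836 and 0.0575 CPM over 1.76, 1.05, 1.83, 1.63 and 0.0626 to 13.8, 16.6, 10.9, 14.4 and 7.00 at 5 d (4.52 ± 0.53, edgeR adjusted p = 8.92e-06), every 5 d library being above every control. At 24 h the change was not called (1.29 ± 0.54), but it was without replicate 5 (1.32, adjusted p = 0.000474) and with the block (1.29, adjusted p = 0.0145). In SH-SY5Y it rose from 0.573–1.96 to 1.79–3.08 CPM with overlap (1.002 ± 0.25, edgeR adjusted p = 0.00209). KCNJ6, the third subunit, was at 3.09, 3.86, 3.81, 2.88 and 9.42 CPM in control and 2.91, 3.49, 5.79, 4.49 and 11.6 at 5 d in IMR-32, replicate 5 being the highest in both, and was not called. It had at most 3 counts in any SK-N-BE(2)C library and 0 in SH-SY5Y. KCNJ8 was higher at 24 h in SH-SY5Y (53.7–65.9 to 86.4–96.9 CPM, 0.60 ± 0.09, edgeR adjusted p = 1.61e-05) and lower at 5 d in IMR-32 (22.0–28.6 to 10.3–17.5 CPM, -0.98 ± 0.14, edgeR adjusted p = 5.78e-05). SK-N-BE(2)C held 109 ± 9.17, 143 ± 13.95 and 121 ± 20.7 CPM, with no call, and the responses differed between lines at both times (edgeR adjusted p = 0.000463 and 2.16e-08).

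Tandem-pore channels held the member that fell in every line. After longer PB 3, 1 and 2 of the 6, 8 and 7 tested were higher and 2, 5 and 2 lower. KCNK5 (chr6:39156747-39197251), a K2P channel opened by alkaline pH and cell swelling, had control libraries of 4.77, 3.96, 5.23, 3.93 and 9.65 CPM in IMR-32, 1.47, 0.952, 1.74, 1.52 and 3.57 at 24 h and 0.524, 0.872, 1.20, 0.548 and 1.62 at 5 d. In SH-SY5Y it went from 4.85, 5.00, 4.38, 5.15 and 4.76 to 1.07, 1.51, 1.31, 1.14 and 1.05 at 24 h and then 0.672, 1.004, 1.35, 0.896 and 1.33 at 5 d. The treated libraries of both lines lay below all controls. SK-N-BE(2)C began lower, at 0.515, 0.439, 0.898, 0.966 and 1.30 CPM, and ended at 0.126, 0.486, 0.294, 0.397 and 0.0551 at 7 d, with overlap. Log2 fold changes at the longer time were -1.58 ± 0.46 (edgeR adjusted p = 0.00613), -2.53 ± 0.39 (edgeR adjusted p = 9.82e-05; -2.503 without replicate 5) and -2.26 ± 0.18 (edgeR adjusted p = 9.72e-09). At 24 h they were -1.55 ± 0.37 for IMR-32 and -2.001 ± 0.18 for SH-SY5Y, and -0.30 ± 0.41, not called, in SK-N-BE(2)C.

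KCNK10 (chr14:88646447-88793251), a mechanically and lipid-gated K2P channel, fell at 7 d in SK-N-BE(2)C from 11.3, 11.7, 9.48, 7.13 and 8.38 to 4.86, 2.27, 2.52, 3.57 and 3.19 CPM (-1.60 ± 0.20, edgeR adjusted p = 2.24e-06) and rose at 5 d in IMR-32 from 3.54, 4.01, 6.15, 3.89 and 3.91 to 11.6, 15.4, 12.4, 14.5 and 7.00 (1.49 ± 0.29, edgeR adjusted p = 0.000613), in both without overlap. Its longer response differed between lines by up to 4.37 on the log2 scale (edgeR adjusted p = 2.10e-08). KCNK3 (chr2:26915590-26956288), an acid-sensitive leak channel, was higher at 7 d in SK-N-BE(2)C, 248, 361, 341, 176 and 211 against 181, 168, 146, 156 and 146 CPM (0.71 ± 0.16, edgeR adjusted p = 0.000934), overlapping through 7 d replicate 4. In IMR-32 it was lower at 5 d, 41.7, 45.5, 35.8, 37.8 and 42.5 against 83.3, 77.0, 51.4, 91.9 and 30.5 CPM (-0.73 ± 0.26, edgeR adjusted p = 0.0320; -0.93 without replicate 5, whose control was the lowest). That call was lost without control replicate 1, 2 or 4, without 5 d replicate 1, 3 or 4, and without the filter on low counts (adjusted p = 0.0658). The remaining K2P members called at the longer time in more than 1 line, both outside the rule for named genes, were KCNK1, lower at 5 d in IMR-32 (-0.96 ± 0.22, edgeR adjusted p = 0.00226) and SH-SY5Y (-0.93 ± 0.15, edgeR adjusted p = 2.21e-05), and KCNK15, higher at the longer time in SK-N-BE(2)C (1.38 ± 0.23, edgeR adjusted p = 5.13e-05) and SH-SY5Y (1.47 ± 0.28, edgeR adjusted p = 0.000150). KCNK15 shares 563 exonic bases with opposite-strand genes.

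Among the auxiliary subunits, KCNAB1 and KCNIP2 rose in all lines at the longer time. Of 7, 6 and 7 tested, 4, 2 and 5 were then higher and 1, 0 and 1 lower. KCNAB1 (chr3:155755490-156256927), a cytoplasmic beta subunit that speeds inactivation of Kv1 channels, held 29.3, 27.5, 36.8, 33.7 and 37.04 CPM in SK-N-BE(2)C controls and 95.5, 96.5, 84.1, 73.7 and 90.3 at 7 d (1.38 ± 0.12, edgeR adjusted p = 3.15e-08). Its level was lower in the other lines, 0.172–1.47 to begin with and 2.09–4.14 at 5 d in IMR-32 (1.51 ± 0.44, edgeR adjusted p = 0.00946), and 0.763–1.999 and 2.05–6.61 in SH-SY5Y (1.51 ± 0.41, edgeR adjusted p = 0.00364). KCNIP2 (chr10:103585731-103603677), a calcium-binding partner of Kv4 channels such as KCND1, rose in SK-N-BE(2)C from 0.848–1.27 CPM to 1.89–3.40 (1.14 ± 0.24, edgeR adjusted p = 0.000502). It also rose from 1.03–2.03 to 2.41–5.32 in IMR-32 (1.59 ± 0.27, edgeR adjusted p = 0.000208) and from 1.32–2.91 to 4.11–4.81 in SH-SY5Y (1.05 ± 0.18, edgeR adjusted p = 4.75e-05). It shares 444 exonic bases with its antisense gene. Neither gene overlapped its controls at the longer time, and neither was called at 24 h in any line, though KCNIP2 was called higher then in SH-SY5Y without control replicate 4 or 24 h replicate 2 or 4.

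KCNAB3, a further beta subunit, fell at 24 h in all lines, from 6.79, 5.31, 4.19, 5.20 and 5.19 to 2.55, 2.005, 1.51, 1.95 and 2.13 CPM in SK-N-BE(2)C, from 9.68, 9.67, 12.6, 9.57 and 8.04 to 5.48, 3.10, 4.91, 4.56 and 2.94 in IMR-32 and from 13, 12.6, 11.2, 14.9 and 13.4 to 4.98, 6.75, 5.28, 6.92 and 6.54 in SH-SY5Y. These groups did not overlap (-1.42 ± 0.18, -1.19 ± 0.18 and -1.10 ± 0.13, edgeR adjusted p = 8.19e-06, 0.000148 and 1.11e-06). At the longer time it was lower in SH-SY5Y (-0.65 ± 0.12) and SK-N-BE(2)C (-1.37 ± 0.18), while IMR-32 had no call (-0.34 ± 0.18), a difference between lines past its own test (edgeR adjusted p = 0.00157). KCNIP4, the Kv4 partner of brain, rose at 5 d in SH-SY5Y from 0.422, 0.368, 0.626, 0.429 and 0.317 to 1.46, 1.17, 1.59, 2.85 and 0.846 CPM (1.79 ± 0.34, edgeR adjusted p = 0.000149). It shares 1912 exonic bases with genes on the opposite strand, PACRGL among them. Its change at 7 d in SK-N-BE(2)C, from 4.89–8.38 to 7.10–13.4 CPM with overlap, was just past the limit (0.60 ± 0.19, edgeR adjusted p = 0.00965) and under it without 7 d replicate 5 (log2 fold change 0.49).

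Whether a response differed between lines was tested in 1 fit of all 45 libraries. After longer PB 36 of 64 members differed, beside 39.3% of all genes, and all 7 genes called in opposite directions were among them. At 24 h 9 differed, beside 6.55% of all genes (KCNA3, KCNC4, KCND1, KCND3, KCNH4, KCNH6, KCNJ8, KCNK7 and KCNQ3). In the fit blocked on replicate number 16 did, and without replicate number 1, 2, 3 or 4 of every group 4, 4, 3 and 4 did. Shares of all genes in these other fits are not given here, so these counts are not to be set beside 6.55%.

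Summed per class and per length, the makeup of the channel transcripts differed between groups. The 64 members together, in SK-N-BE(2)C, went from 358 ± 25.3 CPM per kb in control to 405 ± 23.6 at 24 h and 532 ± 32.1 at 7 d. Calcium- and sodium-activated members, mainly KCNT1, went from 43.2 ± 2.78 to 110.0 ± 8.15, and silent modifiers from 24.2 ± 2.95 to 12.8 ± 6.23. The IMR-32 total was 382 ± 30.3, 390.1 ± 39.7 and 352 ± 15.9 CPM per kb, with overlapping libraries, and its direction depended on the scaling: without division by length the sums were 1704 ± 212, 1885 ± 225 and 1941 ± 88.3 CPM. In it silent modifiers went from 113 ± 13.1 to 42.6 ± 22.8. SH-SY5Y, with the lowest total, went from 213 ± 9.50 to 248 ± 12.8 and 271 ± 19.0, its EAG, ERG and ELK sum from 100.2 ± 11.3 to 101 ± 12.04. These sums are led by a few abundant genes and were not tested.

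**Figure D5:**
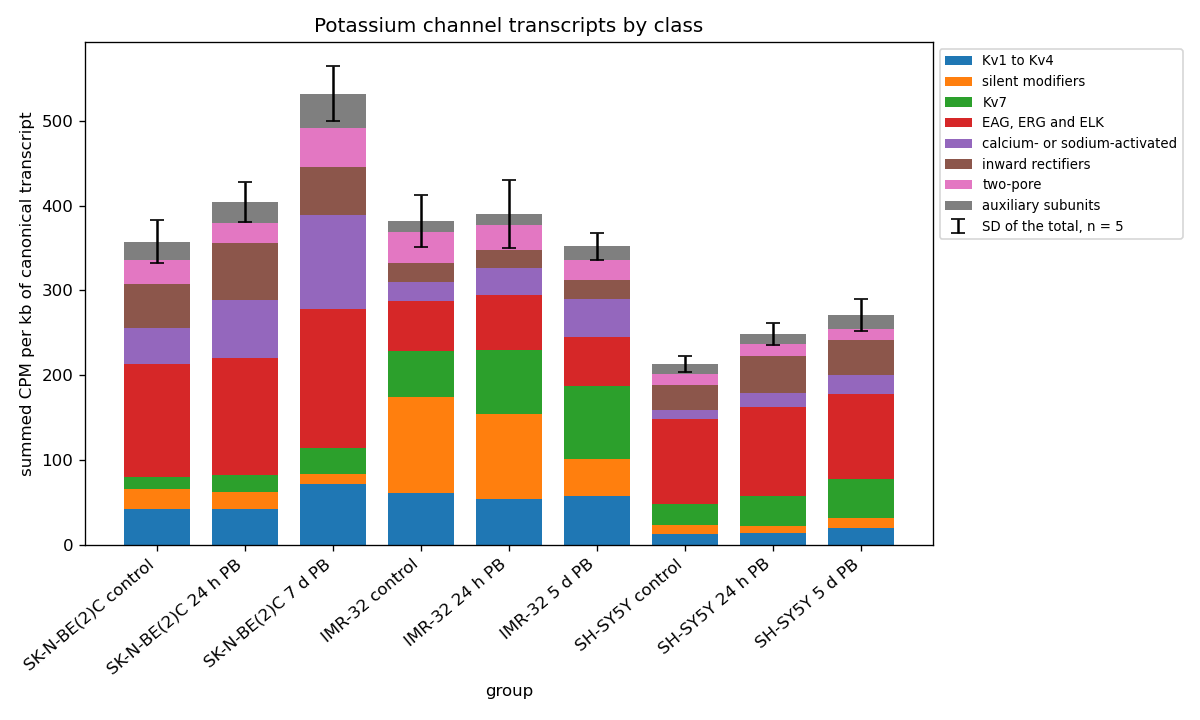
Stacked bars of the summed level of the 64 potassium channel genes per kb of canonical transcript (vertical axis, CPM per kb, from 0) by channel class in the 9 groups, with the SD of the total over 5 libraries. The calcium- and sodium-activated class widens in SK-N-BE(2)C from 43.2 to 110.0 CPM per kb, while the silent modifiers shrink in IMR-32 from 113 to 42.6.

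Genes that work with potassium channels but carry other symbols were counted by the same calls. Of 38 listed (partners, pumps, cotransporters, clustering proteins and related cation channels), 37 were in the tables and 26, 33 and 30 were tested in the 3 lines. At the longer time 13 were higher and 2 lower in SK-N-BE(2)C (24.5% and 22.3% of all genes), 13 and 9 in IMR-32 (16.6% and 15.5%) and 13 and 4 in SH-SY5Y (18.6% and 17.3%). At 24 h 1 was higher and 1 lower in SK-N-BE(2)C, both shares under those of all genes (10.9% and 10.6%). IMR-32 then had 3 and 3 (7.87% and 10.5%) and SH-SY5Y 6 and 1 (10.5% and 11%). The gene called alike in all 3 lines at the longer time was UNC79, a subunit of the sodium leak channel complex, which in SK-N-BE(2)C rose from 82.5 ± 7.70 CPM to 153 ± 17.4 (0.84 ± 0.08, edgeR adjusted p = 5.97e-08). In IMR-32 it rose from 46.1 ± 7.42 to 108 ± 15.4 (1.22 ± 0.14, edgeR adjusted p = 5.99e-06) and in SH-SY5Y from 27.0 ± 4.77 to 44.5 ± 5.24 (0.65 ± 0.11, edgeR adjusted p = 4.34e-05).

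Promoter sequences of RefSeq on GRCh38.p14, 250 bases before to 50 after the start of a gene, were matched by symbol for 44 of the 64 members. Their median GC content was 67.3% against 58.3% over all 27305 promoters of the table, with a median of 25.5 CpG against 14. The letters CACGTG (E-box), searched on both strands like all others, were in 4.55% of members and 7.44% of all promoters, TGACGTCA (CRE) in 2.27% and 1.98%, and the E2F-type letters TTTGGCGC or TTTCCCGC in 4.55% and 2.31%. Parts of the RE1 element, TCAGCACC and GGACAG, were in 6.82% and 25% of members against 1.70% and 20.5% of all. The first of these was found in 3 members, KCNH5, KCNH6 and KCNK3. These matches describe letters in a window of fixed length.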

How the data were processed

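RNA-seq libraries of 45 samples (3 lines, 3 groups each, 5 replicates) were used. Per the submitters' processing notes the authors trimmed reads with Trim Galore 0.6.4 (minimum phred score 20 in the study's methods), aligned them to hg19 with STAR 2.6.1d and deposited raw counts per gene; the column of STAR counts, hence the strand, is not given in sources used here. The authors also deposited CPM values, which equal the counts scaled to each library's total and were used for levels. Deposited tables of DESeq2 1.32.0 output hold the authors' own fold changes and p-values and were not used.

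Counts were analysed per line in R 4.3.3 with edgeR 4.0.16: TMM scaling, filterByExpr (minimum count 10, minimum total 15, proportion 0.7), quasi-likelihood fitting (robust) of 15 libraries with 1 mean per group, and F tests adjusted over all genes by the method of Benjamini and Hochberg. SE was taken as the absolute log2 fold change over the root of its F. A joint fit of all 45 libraries tested untreated lines against each other and differences between responses, reported as the largest log2 difference between any 2 lines. The fits per line were also run on simulated counts with the same spread for every gene, changes at 24 h alone and no differences between replicates. Those counts do not show how the fits behave where libraries stand apart, as some do here. DESeq2 1.42.0, other scalings, no filter, no fold limit, the replicate number as a block and leaving out single replicates were alternatives.

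Members, lists and tests were chosen with earlier results of these data known. Named with values were members called alike at the longer time in all lines or in opposite directions, in each line the 4 largest called rises and 3 largest falls at the longer time, the 3 largest called changes at 24 h and the 3 most abundant per kb in control, and a list that holds KCNQ3, KCNH2, KCNMA1, KCNN3, KCNJ6, KCNK3 and KCNT1. A few members and sequences are not reported here, while counts and sums over members include them. After group means were taken out, same-numbered libraries, which may share a passage, correlated above 0.1 in every pair in 7 of 9 comparisons (in the other 2, both with 7 d in SK-N-BE(2)C, the lowest were 0.0966 and 0.0482). Positions, transcript lengths and filter sequences follow a GENCODE annotation on GRCh37.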

Additional observations from a re-analysis of the deposited data

Results flagged for a closer look

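In 13 of the 200 groups of 5 libraries tested for these members, 1 library stood apart from the other 4 by Dixon's test (gap over range above 0.71). Chance alone flags about 1 in 20 groups. In SH-SY5Y this was KCNH6 in 24 h PB replicate 2 at 18.3 CPM against 13.8–15 in the others. In IMR-32 these were KCNC4 in 5 d PB replicate 5 at 5.38 CPM against 0.917–1.36 in the others, KCNIP2 in control replicate 1 at 2.03 CPM against 1.03–1.25 in the others, KCNJ6 in control replicate 5 at 9.42 CPM against 2.88–3.86 in the others, KCNJ6 in 24 h PB replicate 5 at 18.7 CPM against 2.84–4.26 in the others, KCNJ8 in 5 d PB replicate 5 at 17.5 CPM against 10.3–12.0 in the others, KCNK10 in control replicate 3 at 6.15 CPM against 3.54–4.01 in the others, KCNK5 in control replicate 5 at 9.65 CPM against 3.93–5.23 in the others and KCNMA1 in control replicate 5 at 4.08 CPM against 20.9–23.7 in the others. In SK-N-BE(2)C these were KCND1 in 7 d PB replicate 1 at 7.70 CPM against 12.1–12.9 in the others, KCNH6 in control replicate 1 at 6.70 CPM against 4.31–4.97 in the others, KCNIP2 in 7 d PB replicate 2 at 3.40 CPM against 1.89–2.20 in the others and KCNN1 in 24 h PB replicate 1 at 10.9 CPM against 6.91–8.05 in the others. In IMR-32 replicate 5 was the library that stood apart in 6 of the 8 cases.

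Of the responses of members named by the rule and reported here, 29 differed between lines in the fit of all libraries. Each value here is the largest log2 difference between the responses of any 2 lines, with the edgeR adjusted p of the difference in parentheses. At 24 h they were KCNA3 2.20 (0.00165), KCNC4 1.29 (0.0341), KCND1 1.11 (0.00793), KCNH6 0.884 (0.0196), KCNJ8 0.951 (0.000463) and KCNQ3 3.10 (0.0415). At the longer time, where 7 d stands against 5 d, they were KCNA2 9.06 (0.00855), KCNA3 1.63 (0.0255), KCNAB3 0.999 (0.00157), KCNC4 3.09 (2.19e-08), KCNG1 1.62 (0.000830), KCNH1 2.51 (6.22e-05), KCNH6 2.5 (1.54e-10), KCNIP4 3.55 (0.000600), KCNJ12 2.75 (4.10e-06), KCNJ2 4.76 (0.0137), KCNJ4 4.78 (9.88e-06) and KCNJ8 1.42 (2.16e-08). Further ones were KCNJ9 3.45 (2.17e-05), KCNK10 4.37 (2.10e-08), KCNK3 1.46 (0.000172), KCNMA1 1.85 (0.00184), KCNMB4 3.31 (1.25e-08), KCNN1 0.975 (0.00544), KCNN3 2.51 (0.0124), KCNQ3 1.98 (4.69e-05), KCNS3 2.30 (0.0331), KCNT1 1.68 (0.00429) and KCNT2 0.671 (0.0470). The values of KCNA2, KCNA3, KCNIP4, KCNJ2, KCNJ4, KCNJ9, KCNK10, KCNN3, KCNQ3, KCNS3 and KCNT1 rest in part on a line with under 1 CPM in all its groups, where a fitted fold depends on the prior count.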

How the results depend on the processing

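No named member changed sign under an alternative where either value was called. Uncalled values did, such as those of KCNA3 at 5 d against control (0.08 to -0.14) and KCNJ6 from 24 h to 5 d (-0.25 to 0.19) in IMR-32 without replicate 5. Counts of called members, both directions together, stayed within 1.5 times of those reported under every alternative except the following. From 24 h to 5 d in SH-SY5Y, 24 members (20 higher and 4 lower) differed without a fold limit, in place of 13. The 24 h response differed between lines for 16 members in the fit with a replicate block in place of 9, and for 3 to 10 with replicate numbers left out. The cause was not tested. Leaving out single libraries gave 10 to 13, 22 to 25 and 18 to 21 calls in SK-N-BE(2)C (24 h against control, the longer time against control, the longer time against 24 h), 13 to 17, 26 to 32 and 18 to 25 for IMR-32, 20 to 23, 30 to 33 and 12 to 18 in SH-SY5Y, 27 to 39 longer responses that differed between lines, and 58 to 61, 43 to 48 and 47 to 50 between untreated lines. The replicate block gave 23, 31 and 14 calls in SH-SY5Y, 14, 24 and 20 in SK-N-BE(2)C and 20, 33 and 26 in IMR-32. It took away no call of a named member and added 9. By direction, counts moved by over 1.5 times in IMR-32 at 5 d without replicate 5 (22 lower in place of 14, with or without the block), in IMR-32 at 24 h with the block (7 higher in place of 4), from 24 h to 5 d in SH-SY5Y with library size alone (16 higher in place of 10), and from 24 h to 7 d in SK-N-BE(2)C without 24 h replicate 5 (3 lower in place of 5). Numbers are nested in lines, so untreated lines have no such fit. Shares of all genes under these alternatives are not given here, so their counts are not set against all genes. Leaving out replicate 5 of IMR-32 from all its groups and other lengths for levels per kb were chosen after seeing the data. Members near 1 CPM rest on about 18.5 reads per library, which limits how small a change can be seen there.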

Other observations

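Replicates 1 and 2 of SK-N-BE(2)C, which over all genes lay apart from replicates 3 to 5 among the controls and at 24 h, differed from them in some channels. KCNJ12 stood at 21.2, 18.7, 6.59, 9.88 and 7.35 CPM in control replicates 1 to 5 and at 29.97, 31.2, 15.9, 14 and 15.5 at 24 h. At 7 d KCNA3 was at 178, 166, 78.4, 83.3 and 122 CPM and KCNG1 at 10.99, 13.01, 39.6, 36.4 and 30.7.

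The following members, chosen after their values were seen, were called against control at the longer time in the line named. KCNK12 had too few counts to be tested in SH-SY5Y and KCNK6 in SK-N-BE(2)C. KCNK12, a K2P channel that gives little current by itself, was higher in SK-N-BE(2)C (1.12 ± 0.580 to 3.43 ± 0.721 CPM, log2 fold change 1.58 ± 0.30, edgeR adjusted p = 0.000148). It shares 1347 exonic bases with a gene on the opposite strand, so its level is uncertain. KCNK6, of the weak inward rectifying K2P channels, was lower in IMR-32 (7.67 ± 1.43 to 2.39 ± 0.545 CPM, -1.69 ± 0.24, edgeR adjusted p = 4.64e-05), while in SH-SY5Y it was called higher at 5 d without 5 d replicate 5 (0.54, adjusted p = 0.0210) and at 24 h with the block (0.53, adjusted p = 0.00515) or without control replicate 2 (0.62, adjusted p = 0.0401). KCNAB2, the most common brain beta subunit, was higher in SH-SY5Y (11.01 ± 1.68 to 22.99 ± 2.67 CPM, 0.99 ± 0.11, edgeR adjusted p = 2.39e-07). In IMR-32 the fit blocked on replicate number called it higher at 5 d as well (0.67, adjusted p = 0.00682), but without replicate 5 it stayed under the fold limit (0.43). KCNK9 was higher in SH-SY5Y (0.361 ± 0.173 to 1.16 ± 0.2504 CPM, 1.61 ± 0.32, edgeR adjusted p = 0.000201). It was not tested in SK-N-BE(2)C, where its counts went from 1, 2, 2, 2 and 3 in control to 7, 20, 20, 10 and 10 at 7 d and DESeq2 and the fit without the filter on low counts called it higher. Without replicate 5 of IMR-32, KCNC2, KCNA4, KCNV1, KCNS2, KCNN2, KCNK12 and KCNF1 were also called lower there at 5 d, with log2 fold changes from -0.87 (KCNC2) to -0.52 (KCNA4). With replicate 5 kept, the fit blocked on replicate number called KCNC2 (-0.77, edgeR adjusted p = 0.00535) and KCNV1 lower at 5 d. It also called KCNC2 lower at 24 h (-0.64, edgeR adjusted p = 0.0195).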
